A study of Mus musculus with 90 samples.

Results

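The comparison of Q175 vehicle striatum with WT vehicle striatum used 16 libraries, all those titled as vehicle striatum of these genotypes, of the 90 libraries of the study. They came from 7 mice homozygous for the Q175 knock-in (5 females and 2 males) and 9 wild-type (WT) mice (5 females and 4 males). All were C57BL6/J mice of 9 months, and both groups had been given vehicle by mouth daily from the age of 5 weeks until then. The groups differed in genotype, and also in the mix of sexes and of the L numbers in the library names, taken here as sequencing lanes. Q175 is a knock-in that places an expanded CAG repeat in the mouse Htt gene, so that mice homozygous for it carry no normal Htt allele in any cell from conception, and it serves to model Huntington's disease. RNA was taken from the striatum of the right hemisphere, with 1 library for each mouse, and mice are named by sex and number within their group. The question was how the allele alters the striatal transcriptome across all expressed genes, beyond the markers of medium spiny neurons that are usually followed.

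The striatum is made up mainly of medium spiny neurons, GABA-releasing projection neurons whose excitability depends on potassium and calcium channels and on dopamine, adenosine and cyclic nucleotide signalling. Mutant huntingtin carries a long glutamine stretch, forms aggregates in neuronal nuclei and processes, and interferes with transcription, protein clearance and intracellular transport. Polycomb complexes keep developmental regulators such as the Hox genes silent in adult neurons, and genes of the X chromosome are expressed from a single active copy in each cell of both sexes.

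Total counts ran from 30510374 to 43252099 per library, and levels are given as CPM (counts scaled to a library of 1000000) with the SD over mice. Changes are log2 fold changes, Q175 minus WT, with their standard error after the ± sign. Htt itself (chromosome 5, 34761740 to 34912534, plus strand, GRCm38) ran from 173 to 217 CPM (median 202) in WT and from 108 to 125 CPM (median 111) in Q175 mice, so that no Q175 library reached the lowest WT library (log2 change -0.78 ± 0.0445, adjusted p = 4.15e-19). The markers of the labelled tissue were present in every library. The summed FPKM (fragments scaled to gene length and depth) of 37 genes of medium spiny neurons, 31 of them lower in Q175 mice, lay between 5809 and 7811 in WT and between 3177 and 3793 in Q175 libraries, and no marker gene of any cell type list was at 0 in all 16 libraries. In a whole tissue, fewer cells of a type and less RNA for each cell cannot be told apart. The first principal component of the 16 libraries (35.8% of the variance) separated the groups, and on the second (13.6%) WT F1, F2, F3 and F5 and Q175 F4 had the lowest scores, from -30.4 to -12.7, with Q175 F3 next at -6.30. These 5 libraries also had the highest summed FPKM of 10 cortical excitatory neuron genes, which ran from 71.6 to 215 in WT and from 72.8 to 159 in Q175 libraries. Some results are given with and without them, and list counts given only with them may shift as well. All 5 came from females, so leaving them out also alters the mix of sexes in the groups. Summed FPKM of 5 blood genes was 1772 in Q175 F4 and at most 329.7 in the WT libraries.

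A large part of the measured transcriptome differed in level between the genotypes, mostly by small amounts. Of 17315 genes tested 7817 were called (45.1%), which means a Benjamini-Hochberg adjusted p under 0.05 in the quasi-likelihood F test of edgeR. Of all genes tested 21.9% were higher (3794 genes) and 23.2% lower (4023 genes) in Q175 mice, and 3.11% differed by over 2-fold (183 higher and 355 lower). The median size of a called change was 0.260 on the log2 scale for higher and 0.338 for lower genes. The 7 Q175 values and the 9 WT values did not overlap for 2592 genes, 15.0% of those tested. Without the 5 libraries high in cortical genes 7025 of 17429 genes were called, 3515 higher and 3510 lower. The L number in the library names, taken here as the lane, gave 6346 calls as an added term in the fit, 2964 higher and 3382 lower. Lanes 4 and 8 held both groups, lanes 2 and 6 Q175 libraries and lanes 3 and 7 WT libraries. The names do not say that L is a lane. Some striatum libraries share both the L number and the LB number that follows it, so an L number need not be a single sequencing run. Among the 16 vehicle libraries, lane and genotype cannot be told apart in the lanes that held 1 group. The lane term was fitted over all 45 striatum libraries of the study, and so drew on other Q175 libraries in those lanes. On log2(FPKM + 0.1) values tested with limma, where the median of all genes moved to 0.11, 7223 genes were higher and 2372 lower, against 3794 and 4023 on counts, so the sign of changes of that size depends on the scaling. In no gene list examined here were fewer members higher, or more lower, on that scale than on counts. By length, 19.4% of coding genes that span under 10 kb and 26.4% of those over 300 kb were higher, while 23.6% and 26.8% were lower.

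**Figure D1:**
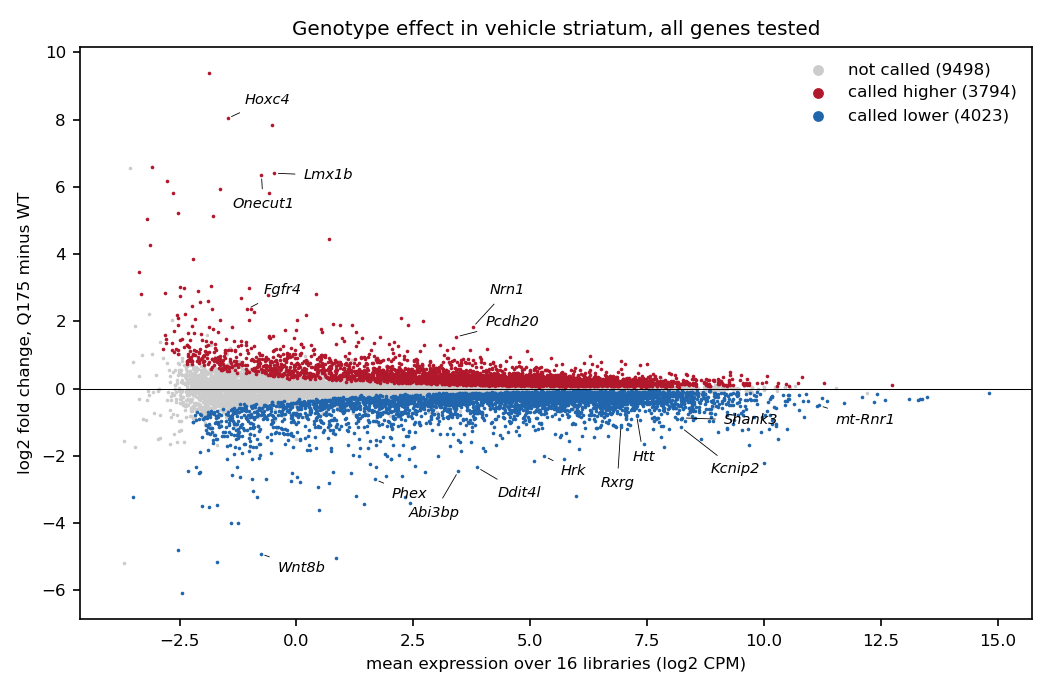
Log2 fold change (Q175 vehicle minus WT vehicle) against mean expression (log2 CPM) for the 17315 genes tested, with called genes in colour and some of the genes described in the text labelled. Fitted changes of genes with almost no counts in one group depend on the prior count. Large rises lie among weakly expressed genes, and large falls reach into highly expressed ones.

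Losses and gains fell in different parts of the expression range. Among the 609 genes with a mean FPKM over 100, 42.4% were lower and 17.1% higher, and none of them rose by over 2-fold whereas 17 fell by that much. Among the 362 tested genes below 0.1 FPKM, 40 rose and 13 fell by over 2-fold. Relative to the scaled library sizes used for CPM, the genes that fell by over 2-fold held 3.03 ± 0.215% in WT and 1.23 ± 0.0793% in Q175 libraries (SD, n = 9 and 7). Those that rose by over 2-fold held 0.0178 ± 0.00169% and 0.0516 ± 0.00186%. The shares given below for mitochondrial and X genes are of the unscaled counts. The filter on low counts kept weak genes that were high in at least 1 arm, so the share of rises among them is a description of the genes kept.

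The 12 genes with the largest falls at a mean of at least 3 on the log2 CPM scale were taken outside the medium spiny neuron list. Abi3bp, an extracellular matrix protein (chromosome 16, 56477878 to 56690135, plus strand), ran from 18.7 to 26.3 CPM (median 23.2) in WT and from 3.72 to 5.62 CPM (median 4.10) in Q175 mice. Its fall was -2.45 ± 0.0963 (adjusted p = 1.28e-24), and the highest Q175 mouse lay far under the lowest WT mouse. Ddit4l, an inhibitor of mTOR signalling, ran from 24.8 to 32.6 CPM (median 29.6) in WT and from 5.33 to 6.59 CPM (median 5.86) in Q175 mice (-2.34 ± 0.0997, adjusted p = 1.38e-23). Hrk, a BH3-only activator of cell death, ran from 60.7 to 81.4 CPM (median 74.5) in WT and from 16.8 to 19.7 CPM (median 17.6) in Q175 mice (-2.01 ± 0.0724, adjusted p = 4.99e-26). These groups did not overlap for any of the 3 genes. Traip, a ubiquitin ligase of the response to stalled replication, changed by -2.16 ± 0.103, and Clspn, an adaptor of the replication checkpoint, by -1.84 ± 0.124. The zinc importer Slc39a2 changed by -1.84 ± 0.0887, the kinase Hipk4 by -1.80 ± 0.0755, and the matrix protein papilin (Papln) by -1.77 ± 0.117. The tyrosine phosphatase genes Ptprv (-2.08 ± 0.114) and Ptpn7 (-2.01 ± 0.132) are neighbours on opposite strands of chromosome 1, and Ptprv is annotated as a processed transcript without a coding frame. Cntnap3, a neurexin-like adhesion protein, changed by -1.69 ± 0.0791. Adjusted p was at most 1.14e-16 for these 8 genes. The collagen VI chain Col6a4 (-1.71 ± 0.274, adjusted p = 1.28e-06) had overlapping groups, unlike the other 11, with the highest Q175 library (F1) at 9.10 CPM and the lowest WT library (M2) at 8.95 CPM.

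The 12 largest rises at the same level were smaller, and adhesion, serotonin and G protein genes were among them. Neuritin (Nrn1, chromosome 13, 36725361 to 36735131, minus strand), a membrane-anchored factor that promotes neurite growth, ran from 1.78 to 27.2 CPM (median 8.11) in WT and from 27.4 to 44.2 CPM (median 31.3) in Q175 mice (1.83 ± 0.241, adjusted p = 1.98e-08). The highest WT value belonged to F2, the library with the highest cortical gene sum, and the change was 2.20 without F2 and 2.71 without the 5 libraries high in cortical genes. The protocadherin Pcdh20 ran from 4.59 to 8.49 CPM (median 6.61) in WT and from 18.03 to 21.6 CPM (median 19.4) in Q175 mice (1.54 ± 0.0975, adjusted p = 1.31e-17). Pcdh19, a protocadherin of the X chromosome, changed by 1.19 ± 0.0838, and the serotonin receptor Htr2c by 0.96 ± 0.0608. Serpina3n, a secreted protease inhibitor known from reactive astrocytes, ran from 6.20 to 7.96 CPM (median 7.06) in WT and from 13.5 to 19.5 CPM (median 16.1) in Q175 mice (1.21 ± 0.113, adjusted p = 2.44e-12). All 12 rises had groups that did not overlap. The other rises were those of Fam196b (1.30 ± 0.0932), the iodide symporter Slc5a5 (1.16 ± 0.0764), the matrix protein Smoc1 (1.16 ± 0.0647), the vesicle release factor Baiap3 (1.12 ± 0.127), the myosin light chain Myl6b (0.99 ± 0.0765), the G protein subunit Gng4 (0.94 ± 0.0725) and the choline dehydrogenase Chdh (0.94 ± 0.0922). Their adjusted p was at most 4.99e-10.

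**Figure D2:**
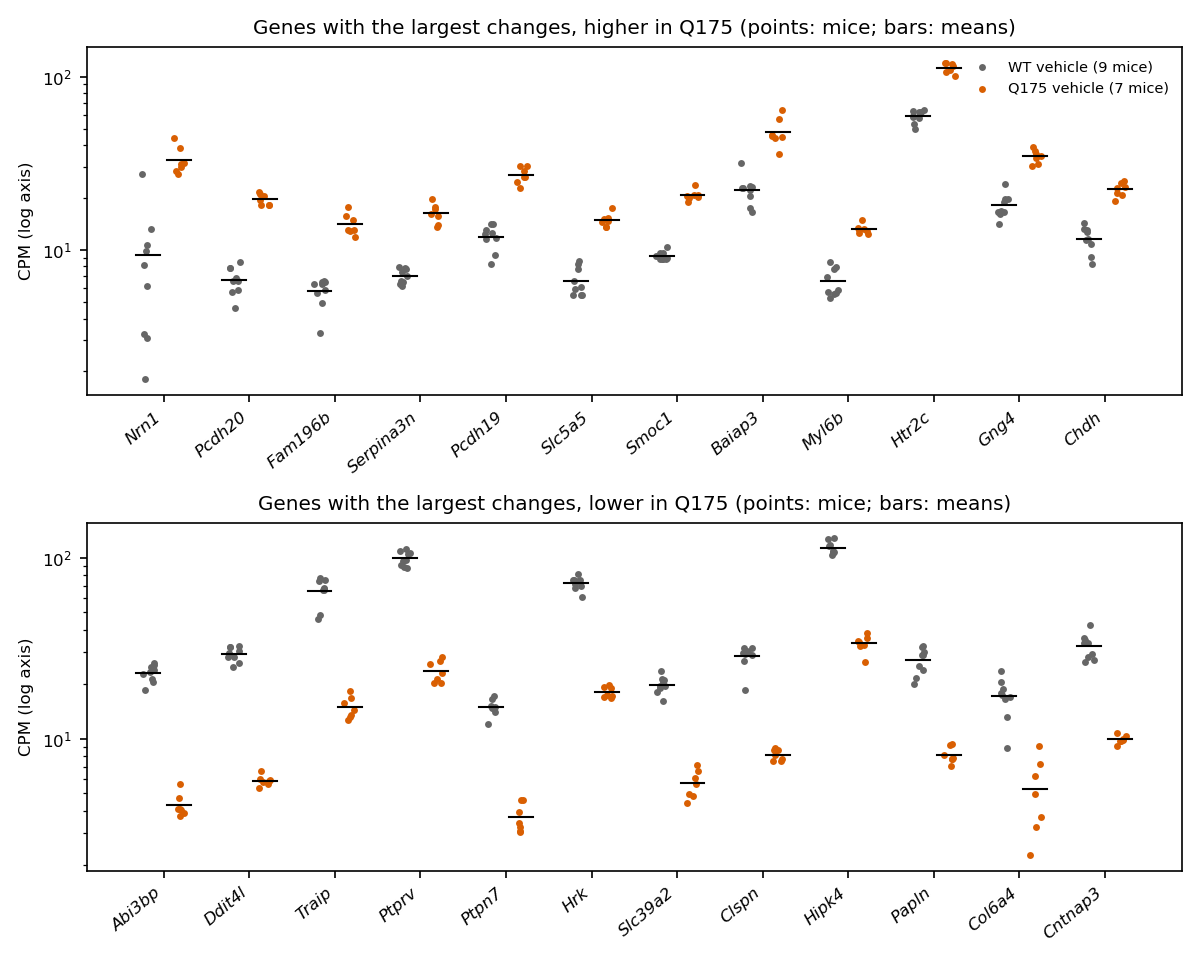
CPM (log axis) of the 12 higher and 12 lower genes with the largest changes, 1 point for each of the 9 WT and 7 Q175 vehicle mice, with the group mean as a bar. For 23 of the 24 genes the points of the groups do not overlap, and the exception is Col6a4.

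Genes that set neuronal excitability were lower more often than higher. Of 44 voltage-gated potassium channel subunits 18 fell and 5 rose (18 and 3 without the 5 libraries high in cortical genes; median of the 16 libraries -0.15, against 0.00 over all genes tested), that is 40.9% lower and 11.4% higher where 23.2% and 21.9% of all genes were. The auxiliary subunit Kcnip2, which sets the surface level of A-type channels, had 424 ± 31.7 CPM in WT and 193 ± 17.4 CPM in Q175 mice (-1.15 ± 0.0632), and the ether-a-go-go channel Kcnh4 had 77.1 ± 7.75 CPM in WT and 30.1 ± 3.04 CPM in Q175 mice (-1.37 ± 0.0788). The auxiliary subunits Kcnab1 and Kcnip3 changed by -0.80 ± 0.0677 and -0.53 ± 0.0484. Of 24 inward rectifier and tandem-pore potassium channels, which hold the resting potential, 11 fell and 1 rose (median -0.12). The tandem-pore channel Kcnk2 changed by -0.75 ± 0.0617 and Kcnk1 by -0.38 ± 0.0358, and the inward rectifiers Kcnj4 and Kcnj2 by -0.70 ± 0.0634 and -0.47 ± 0.0738. Of 26 calcium channel subunits 13 fell and 4 rose (median -0.16), and the 4 of smallest p were all auxiliary: Cacnb2 (-0.66 ± 0.0551), Cacng4 (-0.76 ± 0.0637), Cacna2d3 (-0.66 ± 0.0609) and Cacng2 (-0.32 ± 0.0339). Cacng2 and Cacng4 are known mainly as partners that bring AMPA-type glutamate receptors to the synapse. Adjusted p was at most 7.07e-07 for these 12 genes. The TRP cation channels split, with 5 of 15 higher and 3 lower: Trpc6 (-0.80 ± 0.0831) fell, and Trpc7 (0.53 ± 0.0783) and Trpc4 (0.39 ± 0.0640) rose (adjusted p of at most 2.47e-06). On log2(FPKM + 0.1) values 7 rose and 15 fell among the voltage-gated, 1 rose and 8 fell among the inward rectifier and tandem-pore, and 7 rose and 10 fell among the calcium channel genes.

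At the synapse, postsynaptic scaffolds were lower and presynaptic genes went both ways. Of 31 postsynaptic scaffold genes 17 fell and 7 rose (median -0.13), and on log2(FPKM + 0.1) values 10 rose and 12 fell. Shank3, a master scaffold of striatal excitatory synapses, ran from 346 to 448 CPM (median 403) in WT and from 203 to 238 CPM (median 215) in Q175 mice (-0.87 ± 0.0738, adjusted p = 1.66e-13). Dlg4, which encodes PSD-95, had 711 ± 51.5 CPM in WT and 507 ± 27.8 CPM in Q175 mice (-0.50 ± 0.0463, adjusted p = 2.26e-12), and Baiap2, an actin-binding spine protein, changed by -0.83 ± 0.0829 (adjusted p = 1.89e-11). The Q175 and WT values of these 3 genes did not overlap. Of 38 synaptic vesicle genes 15 fell and 9 rose, a split that turned on log2(FPKM + 0.1) values (18 rose and 6 fell) and was even (13 and 13) without the 5 libraries high in cortical genes. Synaptophysin (Syp), an abundant vesicle membrane protein encoded on the X chromosome, ran from 465 to 619 CPM (median 499) in WT and from 727 to 779 CPM (median 755) in Q175 mice, without overlap (0.50 ± 0.0418, adjusted p = 7.41e-14). Complexin 2 (Cplx2), which clamps vesicle fusion, changed by -0.38 ± 0.0407, and the synaptotagmins Syt12 and Syt2 by -0.56 ± 0.0544 and -0.56 ± 0.0710 (adjusted p of at most 8.1e-09). Of 23 neuropeptide genes tested 4 rose and 6 fell (4 and 3 without the 5 libraries high in cortical genes), including the neurexophilin Nxph4 (0.82 ± 0.136) and thyrotropin-releasing hormone, Trh (-0.65 ± 0.121, adjusted p of at most 1.71e-05).

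Synaptic adhesion molecules and cadherins were called more often than all genes, in both directions on counts. Of 44 synaptic adhesion molecules 18 rose and 13 fell, 70.5% in all against 45.1% of all genes, while 26 rose and 6 fell on log2(FPKM + 0.1) values. Without the 5 libraries high in cortical genes 13 of them rose and 12 fell. The contactins moved apart, with Cntn6 at 0.55 ± 0.0453 and Cntn5 at -0.83 ± 0.0890, and the leucine-rich repeat protein Lrrtm1 changed by -0.58 ± 0.0609 (adjusted p of at most 1.18e-10). Of 20 cadherins 7 rose and 7 fell (8 rose and 5 fell on log2(FPKM + 0.1) values): Cdh9 (-0.96 ± 0.0725), Cdh4 (-0.99 ± 0.106) and Cdh13 (-0.46 ± 0.0376) fell and Cdh18 (0.77 ± 0.0763) rose (adjusted p of at most 1.02e-10). Of 31 semaphorins, plexins and neuropilins 8 rose and 7 fell, a share close to that of all genes (8 and 4 without the 5 libraries high in cortical genes), with the secreted ligand Sema3d at 0.89 ± 0.0993 and the membrane ligand Sema7a at -0.67 ± 0.0627. Plxnd1, a semaphorin receptor, changed by -0.58 ± 0.0714. In the Slit, Robo, netrin and Unc5 group (2 of 17 higher and 5 lower on counts, 7 and 2 on log2(FPKM + 0.1) values, 3 and 3 without the 5 libraries high in cortical genes) the ligand Slit2 rose by 0.87 ± 0.0909 and the receptor Robo3 changed by -0.89 ± 0.117 (adjusted p of at most 1.91e-08 over these 5 guidance genes). The ephrin family had 6 of 22 genes higher and 6 lower, and the 4 of smallest p were all lower, among them the receptor Epha8 (-0.48 ± 0.0852) and the ligand Efnb3 (-0.27 ± 0.0519, adjusted p of at most 2.85e-05).

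A pair of integrin genes fell strongly, while collagens were called about as often as all genes. The fibronectin receptor subunit Itga5 ran from 35.5 to 46.5 CPM (median 41.8) in WT and from 14.2 to 17.8 CPM (median 15.7) in Q175 mice (-1.39 ± 0.0570, adjusted p = 5.12e-24). Itga9, a receptor subunit for tenascin, ran from 26.2 to 37.4 CPM (median 33.2) in WT and from 10.3 to 13.8 CPM (median 12.3) in Q175 mice (-1.46 ± 0.0974, adjusted p = 8.03e-17). Both integrin genes were lower in every Q175 mouse than in any WT mouse, whereas Itgav rose by 0.36 ± 0.0439 (adjusted p = 4.15e-09). Of 39 laminins and integrins 12 rose and 9 fell (15 rose and 6 fell on log2(FPKM + 0.1) values), and of 43 collagens 9 rose and 9 fell (20.9% each way, where 21.9% of all genes were higher and 23.2% lower, and 15 rose and 8 fell on log2(FPKM + 0.1) values), including Col20a1 (-1.28 ± 0.135), Col6a1 (-0.44 ± 0.0668) and Col9a3 (0.62 ± 0.0944). In the list of perineuronal net components and proteoglycans 10 of 25 fell and 3 rose on counts, and 5 rose and 6 fell on log2(FPKM + 0.1) values. The lecticans neurocan (Ncan) and brevican (Bcan) changed by -0.31 ± 0.0553 and -0.31 ± 0.0650, and the hyaluronan synthase Has3 by -0.55 ± 0.0885 (adjusted p of at most 8.87e-05 over these 6 matrix genes). Astrocytes make Ncan and Bcan, and 10 of 13 astrocyte markers also fell, their summed FPKM being 1449 to 1724 in WT and 1317 to 1391 in Q175 libraries. Their part in the matrix result was not tested.

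Genes of retinoic acid signalling were lower, and among the lists that are not of cell types theirs had the lowest median. Retinoic acid is made from retinol, binds RAR and RXR receptors and sets genes of striatal neurons in development and adult life. Of 20 genes 12 fell and 1 rose (60% and 5%, where 23.2% and 21.9% of all genes did, median -0.32). On log2(FPKM + 0.1) values 2 rose and 11 fell. The receptor Rxrg ran from 132 to 207 CPM (median 168) in WT and from 73.5 to 87.9 CPM (median 83.2) in Q175 mice (-1.08 ± 0.0987, adjusted p = 1.57e-12), and Rarb changed by -0.77 ± 0.0776. Dhrs3, which returns retinal to retinol, and the retinol carrier Rbp4 changed by -0.89 ± 0.0770 and -0.75 ± 0.0816 (adjusted p of at most 1.61e-10 with Rarb). The groups did not overlap for any of these 4 genes. Among 25 Wnt ligands and receptors 8 fell and 3 rose on counts (32% and 12%), and 5 rose and 5 fell on log2(FPKM + 0.1) values. Wnt8b, a ligand, ran from 1.44 to 2.96 CPM (median 2.39) in WT and from 0 to 0.190 CPM (median 0.0317) in Q175 mice (-4.91 ± 0.316, adjusted p = 2.27e-17), and Wnt4 changed by -1.57 ± 0.240. Of 20 fibroblast growth factor genes 5 rose and 6 fell (25% and 30%, near the 21.9% and 23.2% of all genes). The ligand Fgf3 changed by -1.97 ± 0.170. The receptor Fgfr4 had 0.217 ± 0.136 CPM in WT and 1.15 ± 0.161 CPM in Q175 mice (2.37 ± 0.220). On log2(FPKM + 0.1) values 10 rose and 4 fell in this family. In the Notch pathway 5 of 25 genes were higher and 7 lower (20% and 28%, near the shares of all genes). On log2(FPKM + 0.1) values 7 were higher and 5 lower, and without the 5 libraries high in cortical genes 3 and 6. Its ligand Jag1 changed by -0.79 ± 0.0731 and its target gene Hey1 by -0.52 ± 0.0497 (adjusted p of at most 4.66e-07 over Wnt4, Fgf3, Fgfr4, Jag1 and Hey1).

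Phosphoinositide and diacylglycerol enzymes were called about as often as all genes. Of 53 phosphoinositide and diacylglycerol enzymes 14 fell and 12 rose (26.4% and 22.6%, where 23.2% and 21.9% of all genes did): the phospholipases Plch2 (-0.65 ± 0.0593) and Plcb1 (-0.57 ± 0.0636) fell, and the diacylglycerol kinase Dgka (0.54 ± 0.0518) rose. Sphingolipid and ganglioside enzymes had 8 of 27 higher and 8 lower. Smpd3, the neutral sphingomyelinase of neurons, changed by -0.76 ± 0.0710, and the sialyltransferases St8sia3 and St3gal5, which build gangliosides, by -0.66 ± 0.0649 and -0.27 ± 0.0301. Adjusted p was at most 3.91e-10 for these 6 genes, and the groups overlapped for none of them. On log2(FPKM + 0.1) values 24 rose and 8 fell among the phosphoinositide enzymes and 12 rose and 4 fell among the sphingolipid enzymes.

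In 5 families of protein clearance, nuclear transport and tRNA charging more members were called higher than lower, by small amounts. Of 38 proteasome subunits 16 rose and 1 fell (median 0.08), 42.1% higher against 21.9% of all genes. Without the 5 libraries high in cortical genes 24 of them rose and 0 fell. The base subunit Psmd1 had 117 ± 7.91 CPM in WT and 141 ± 3.75 CPM in Q175 mice (0.28 ± 0.0330), and Psmd2 changed by 0.14 ± 0.0274. Of 30 lysosomal genes 16 rose and 2 fell (median 0.14), with the protease Ctsl at 0.28 ± 0.0357, the membrane protein Lamp2 at 0.27 ± 0.0382 and Cln3, the Batten disease gene, at 0.29 ± 0.0489. The proton pump that acidifies lysosomes and synaptic vesicles had 7 of 19 subunits higher and 2 lower (11 and 2 without the 5 libraries high in cortical genes). Atp6v1a, its catalytic subunit, ran from 256 to 320.1 CPM (median 296) in WT and from 373 to 395 CPM (median 387) in Q175 mice, without overlap (0.41 ± 0.0359). Of 23 importins and exportins 12 rose and 0 fell (8 and 0 without the 5 libraries high in cortical genes). Xpot, the tRNA exporter, changed by 0.24 ± 0.0255 and the importin Ipo8 by 0.21 ± 0.0333. Cytosolic aminoacyl-tRNA synthetases had 10 of 20 higher and 2 lower, with the histidine enzyme Hars at 0.24 ± 0.0246 and the lysine enzyme Kars, a lower one that was not called on log2(FPKM + 0.1) values, at -0.17 ± 0.0288. Adjusted p was at most 2.26e-05 for these 10 genes, and on log2(FPKM + 0.1) values these 5 families had 15 to 33 higher members and at most 2 lower. The median changes of these families, between 0.05 and 0.14, were small beside the median size of a called change. Summed FPKM of 14 microglia markers, cells rich in lysosomes, ran from 334 to 449.7 in WT and from 453 to 529 in Q175 libraries, on a scale where the median of all genes is shifted upward. On counts 4 of 14 were called higher (28.6%, against 21.9% of all genes), with a median of 0.12, and the groups overlapped for each of the 14. The part of microglia in the lysosomal result was not tested.

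Genes of the unfolded protein response were lower more often on counts and higher more often on log2(FPKM + 0.1) values. Of 25 genes 13 fell and 3 rose on counts (median -0.15, with 12 lower and 1 higher without the 5 libraries high in cortical genes), and 8 rose and 5 fell on log2(FPKM + 0.1) values. Atf6, a membrane-bound sensor of misfolded protein in the endoplasmic reticulum, ran from 105 to 143 CPM (median 124) in WT and from 76.5 to 85.8 CPM (median 78.6) in Q175 mice (-0.64 ± 0.0478, adjusted p = 2.5e-15), and it fell by 0.52 on the log2(FPKM + 0.1) scale too. The transcription factor Xbp1 had 81.1 ± 7.87 CPM in WT and 64.8 ± 3.48 CPM in Q175 mice (-0.32 ± 0.0498), the pseudokinase Trib3 2.49 ± 0.632 CPM in WT and 1.15 ± 0.106 CPM in Q175 mice (-1.12 ± 0.155) and the chaperone partner Sdf2l1 changed by -0.62 ± 0.101 (adjusted p of at most 1.52e-06). Of 30 autophagy genes 6 rose and 6 fell, a share called near the 45.1% of all genes, while 16 rose and 3 fell on log2(FPKM + 0.1) values. Atg13, a subunit of the initiating kinase complex, changed by -0.21 ± 0.0251 (adjusted p = 1.31e-09). Splicing factors of the SR and hnRNP families had 11 of 33 lower and 4 higher, which turned to 13 rose and 2 fell on log2(FPKM + 0.1) values, and translation initiation factors had 16 of 54 higher and 6 lower (15 and 3 without the 5 libraries high in cortical genes). Eif2ak4 and Eif2ak2, kinases that halt translation when amino acids are short or double-stranded RNA is present, rose by 0.32 ± 0.0446 and 0.59 ± 0.0852 (adjusted p of at most 1.71e-07). Kinesin genes had 15 of 39 higher and 5 lower (11 and 5 without the 5 libraries high in cortical genes). The dendritic motor Kif17 was among the lower ones (-0.62 ± 0.0630, adjusted p = 2.44e-11).

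**Figure D3:**
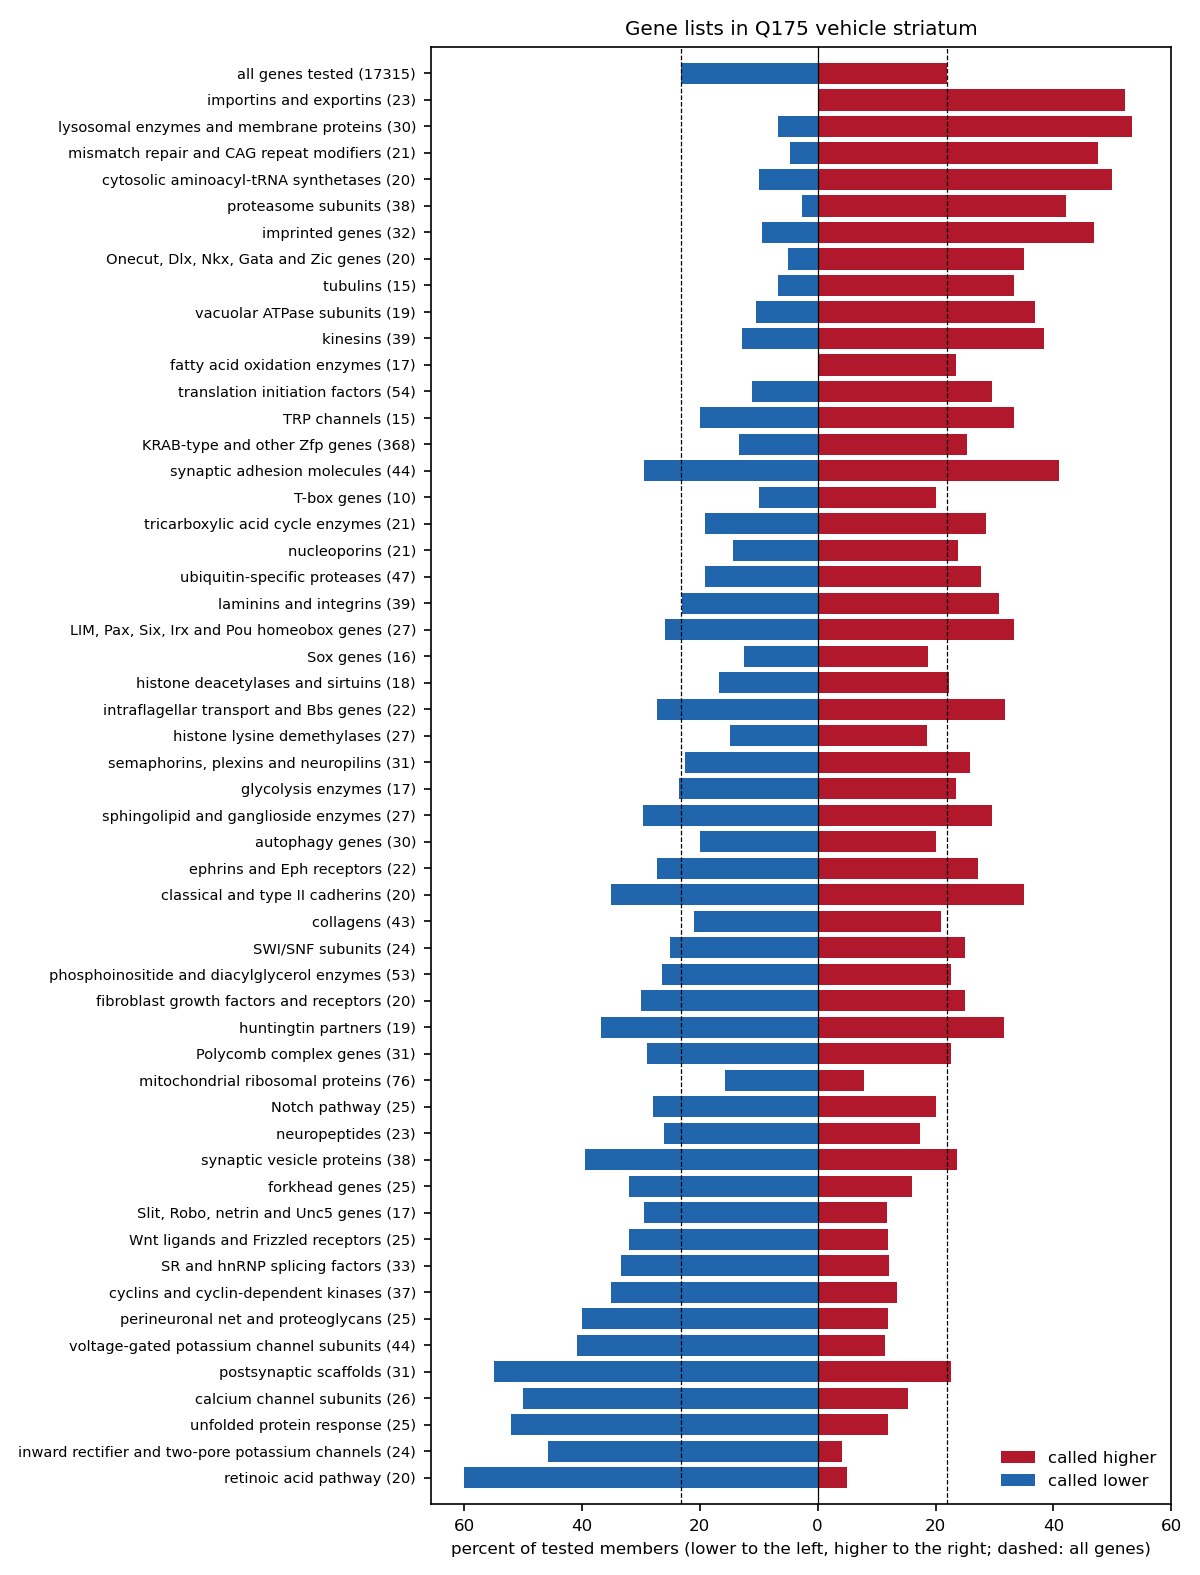
Share of the tested members of the gene lists, other than cell type markers and Hox genes, called higher (right) and lower (left) in Q175 vehicle striatum, with the number tested in brackets and all genes tested as the first row. Proteasome, lysosome and importin lists extend to the right, and retinoic acid, ion channel and unfolded protein response lists to the left.

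Every mitochondrial gene tested was lower. All 15, 13 that encode protein and the 2 ribosomal RNAs, were called, with log2 changes between -0.12 and -0.50 (median -0.31). The ribosomal RNA mt-Rnr1 ran from 2501 to 2939 CPM (median 2684) in WT and from 1703 to 2163 CPM (median 1891) in Q175 mice (-0.50 ± 0.0600, adjusted p = 2.21e-09), and its groups did not overlap. Among the messenger RNAs mt-Nd3, a complex I subunit, ran from 919 to 1150.0 CPM (median 982) in WT and from 727 to 906 CPM (median 789.5) in Q175 mice (-0.35 ± 0.0592, adjusted p = 3e-06). The complex I subunits mt-Nd1, mt-Nd2 and mt-Nd4 changed by -0.34 ± 0.0590, -0.40 ± 0.0611 and -0.31 ± 0.0510, cytochrome b (mt-Cytb) by -0.31 ± 0.0472, and the ATP synthase subunits mt-Atp6 and mt-Atp8 by -0.33 ± 0.0554 and -0.31 ± 0.0613 (adjusted p of at most 5e-05). The groups overlapped for these 6 genes, with the lowest WT library below the highest Q175 library. Mitochondrial genes made up 10.7 ± 0.660% of the counts in WT and 9.84 ± 0.516% in Q175 libraries (SD, n = 9 and 7). With a term for sequencing lane 13 of the 15 were called, on log2(FPKM + 0.1) values 12, in the females alone 12 and in the males alone 11, all of them lower. The share of counts overlapped between the groups, 9.70 to 11.6% in WT and 9.21 to 10.8% in Q175 libraries.

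Enzymes of the tricarboxylic acid cycle (47.6% called) and of glycolysis (47.1%) were called about as often as all genes (45.1%). Of 76 nuclear genes for mitochondrial ribosomal proteins 6 rose and 12 fell (median 0.00), a split that turned on log2(FPKM + 0.1) values (46 rose and 0 fell) and, with 15 and 8, without the 5 libraries high in cortical genes. In the tricarboxylic acid cycle 6 of 21 enzymes rose and 4 fell: Idh3a rose by 0.27 ± 0.0287 and Pdha1, which feeds the cycle from pyruvate, by 0.22 ± 0.0240 (adjusted p of at most 1.77e-10). Without the 5 libraries high in cortical genes 9 enzymes of the cycle rose and 2 fell, and on log2(FPKM + 0.1) values 16 rose and 0 fell. Glycolysis had 4 of 17 enzymes higher and 4 lower (9 and 3 without the 5 libraries high in cortical genes, while 11 rose and 1 fell on log2(FPKM + 0.1) values), with Pgam1 at 0.17 ± 0.0305 and Pgk1 at 0.15 ± 0.0287, and the astrocyte isoform Aldoc at -0.43 ± 0.0585. Of 17 fatty acid oxidation enzymes 4 rose and 0 fell (12 rose and 0 fell on log2(FPKM + 0.1) values), including Etfdh (0.22 ± 0.0430) and Acadvl (0.20 ± 0.0388, adjusted p of at most 4.86e-05 over these 5 genes).

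Hox genes with few or no counts in WT striatum had counts in Q175 striatum, also those too low to be tested. Of 38 Hox genes, which set position along the body axis in the embryo, 8 passed the filter on low counts, of which 7 rose, so all 38 were followed in the deposited counts. The list was chosen with rises of some of its members known, and the filter let in members through the group where they were high. The number of Hox genes with at least 1 count ran from 4 to 10 (median 6) in the WT libraries and from 19 to 24 (median 21) in the Q175 libraries. Their summed counts ran from 9 to 26 in WT and from 268 to 378 in Q175 libraries, whose depths spanned 30510374 to 43252099 and 31230067 to 41756924 counts. Every Q175 mouse lay above every WT mouse on both measures, in females and in males, and 18 Hox genes had counts in most Q175 but not in most WT libraries. The C cluster on chromosome 15 held most of the signal, with 5 counts over the 9 WT and 1728 over the 7 Q175 libraries, and Hoxc4, Hoxc5, Hoxc6 and Hoxc8 had 900, 587, 123 and 58 counts in Q175 mice. Relative to depth Hoxc4, with 3 counts in WT libraries, was 398-fold higher (95% exact counting interval 136 to 1931), and Hoxc5, with 0 counts in WT libraries, at least 259-fold higher when the WT libraries together are given 3 counts. Hoxc6 and Hoxc8 lie within the annotated span of Hoxc5, so reads of these neighbours may have been shared out among them. The A cluster on chromosome 6 went from 53 to 174 counts, the B cluster on chromosome 11 from 23 to 125, and the D cluster on chromosome 2 from 81 to 281, of which Hoxd8 made up 147 in Q175 and 2 in WT libraries. Hoxd1 had 71 counts in WT and 89 in Q175 libraries, with means of 0.226 and 0.353 CPM. Its change of 0.60 was not called (edgeR adjusted p = 0.0625), but was once Q175 F2, Q175 F4 or WT F5 was left out. It was also called higher without the 5 libraries high in cortical genes (1.02). With a term for lane, and on log2(FPKM + 0.1) values, all 8 tested Hox genes were called higher. Hoxb4, in contrast, had 15 counts in WT and 10 in Q175 libraries. Hoxa11, Hoxa13, Hoxb1, Hoxc11, Hoxc12, Hoxd10 and Hoxd12 had 0 counts in all 16 libraries, which allows up to 3 counts over each group, for counting error only.

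**Figure D4:**
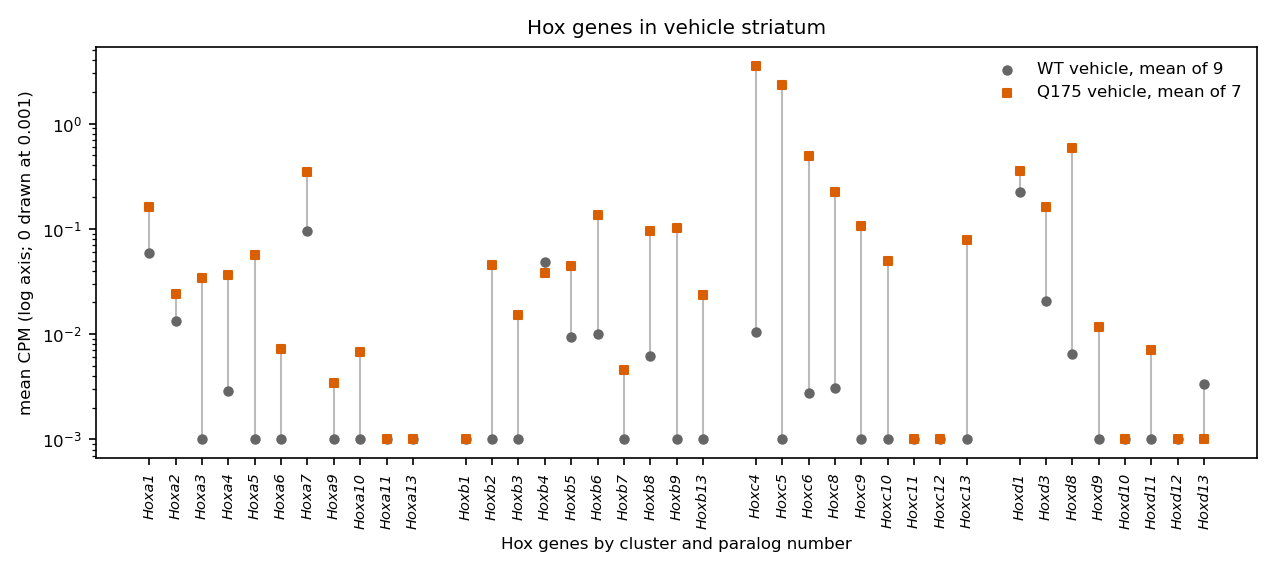
Mean CPM (log axis, with values of 0 drawn at the lower edge) of the 38 Hox genes in WT and Q175 vehicle striatum, in the order of paralog number within each of the 4 clusters. Q175 means lie above WT means for most genes of the C cluster and for Hoxd8, and Hoxa11, Hoxa13, Hoxb1, Hoxc11, Hoxc12, Hoxd10 and Hoxd12 are at 0 in both groups.

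Other families of developmental factors held fewer such genes, and more of their members had counts in most WT libraries. Counts in most Q175 but not most WT libraries were found for 6 of 48 LIM, Pax, sine oculis, Irx and Pou homeobox genes (Pax3, Pou1f1, Pax2, Pax5, Pou4f2 and Isl2), 4 of 17 T-box genes (Tbx5, Tbx10, Tbx19 and Tbx22), 1 of 44 forkhead genes (Foxa1), 1 of 34 Onecut, Dlx, Nkx, Gata and Zic genes (Nkx2-3) and 0 of 19 Sox genes, against 18 of 38 Hox genes. These genes were chosen by that count, which only members without counts in most WT libraries can meet. Counts in most WT libraries were found for 4 of 38 Hox genes, but for 37 of 48 genes of the first list here. They were also found for 13 of 17 T-box, 29 of 44 forkhead and 18 of 19 Sox genes. The shares of the families therefore cannot be compared directly. Onecut1 (22 counts in WT, 1553 in Q175 libraries) and Lmx1b (24 and 1782) rose but had counts in most WT libraries. Of 25 forkhead genes tested 4 rose and 8 fell on counts (5 and 4 on log2(FPKM + 0.1) values), with Foxo1 at -0.83 ± 0.0643 (adjusted p = 1.05e-14). Also lower were the neural factor Pou3f1 (-0.89 ± 0.0800) and Dlx6, a regulator of GABA neurons (-0.51 ± 0.0496, adjusted p of at most 8.67e-12). Barx1, a homeobox gene outside the lists that was chosen after its values were seen, had 0 counts in 9 WT libraries and 82 over the 7 Q175 libraries, at least 36.2-fold higher when the WT libraries together are given 3 counts, an estimate that covers counting error only. Of 31 Polycomb genes, repressors of the Hox clusters, 7 rose and 9 fell on counts, and 15 rose and 2 fell on log2(FPKM + 0.1) values, the chromodomain protein Cbx8 rising by 0.79 ± 0.0727 and Bmi1 by 0.27 ± 0.0437, while Epop fell by 1.35 ± 0.164 (adjusted p of at most 1.17e-06). Cdkn2a, a cell cycle inhibitor that Polycomb silences in many cell types, had 0.151 ± 0.0882 CPM in WT and 0.637 ± 0.167 CPM in Q175 mice (2.05 ± 0.242, adjusted p = 1.29e-09, and 2.74 without the 5 libraries high in cortical genes).

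The promoters of strongly changed genes ranged from CpG-rich to CpG-poor. RefSeq promoter sequences on GRCm38.p6 (250 bases before to 50 after the start) were matched by gene for 10068 genes tested that had a single entry, with a median of 6.67 CpG dinucleotides for every 100 bases. Since 102 of the 183 genes higher by over 2-fold and 187 of the 355 lower ones had an entry, under 80% of each, a comparison of these sets is void. The promoters of 4 genes, chosen after the values were seen to show the range among strongly changed genes, are printed with each CpG in capitals. Onecut1, which rose by 6.36 ± 0.229, has 38 CpG in 300 bases (chr9:74861671-74861970, plus strand), and Hoxc4, with 3 counts over the WT and 900 over the Q175 libraries, has 9 (chr15:103034145-103034444, plus strand). Wnt8b, which fell by 4.91 ± 0.316, has 6 (chr19:44493222-44493521, plus strand), and Ddit4l, which fell by 2.34 ± 0.0997, has 14 (chr3:137623422-137623721, plus strand). All 4 were searched on both strands for the cyclic AMP response element TGACGTCA, the AP-1 motif TGANTCA, the E-box CACGTG and the EGR motif GCGTGGGCG, of which none contains another. The E-box was found in the promoter of Onecut1, and no other match in these windows. Over all matched promoters 3.08% held the cyclic AMP element, 4.69% the AP-1 motif, 9.79% the E-box and 1.17% the EGR motif.
Onecut1: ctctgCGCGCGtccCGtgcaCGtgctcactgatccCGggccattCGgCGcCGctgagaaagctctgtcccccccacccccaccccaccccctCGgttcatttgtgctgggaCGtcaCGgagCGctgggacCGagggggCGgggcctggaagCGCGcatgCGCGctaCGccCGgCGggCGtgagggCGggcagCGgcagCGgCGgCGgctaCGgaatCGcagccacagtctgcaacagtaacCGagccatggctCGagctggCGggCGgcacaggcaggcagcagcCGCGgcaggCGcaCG
Hoxc4: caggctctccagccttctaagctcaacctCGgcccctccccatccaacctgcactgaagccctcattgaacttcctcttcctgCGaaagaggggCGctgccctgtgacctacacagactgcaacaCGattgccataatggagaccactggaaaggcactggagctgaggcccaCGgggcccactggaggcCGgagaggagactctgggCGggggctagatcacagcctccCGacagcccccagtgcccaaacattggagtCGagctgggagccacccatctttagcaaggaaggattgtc
Wnt8b: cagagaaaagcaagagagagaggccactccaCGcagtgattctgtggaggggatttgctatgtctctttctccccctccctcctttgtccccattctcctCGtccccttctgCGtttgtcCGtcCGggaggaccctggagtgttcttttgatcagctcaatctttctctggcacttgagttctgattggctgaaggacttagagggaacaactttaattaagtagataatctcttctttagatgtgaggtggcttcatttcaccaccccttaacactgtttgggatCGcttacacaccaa
Ddit4l: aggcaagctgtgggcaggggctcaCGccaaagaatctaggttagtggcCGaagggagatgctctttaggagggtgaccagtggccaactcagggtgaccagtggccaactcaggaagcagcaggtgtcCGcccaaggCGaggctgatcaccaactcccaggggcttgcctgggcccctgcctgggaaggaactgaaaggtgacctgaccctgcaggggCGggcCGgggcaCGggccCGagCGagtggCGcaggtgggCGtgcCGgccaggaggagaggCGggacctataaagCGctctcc

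Other lists of chromatin regulators had from 33.3% to 50% of their members called, against 45.1% of all genes, with strong changes of single members. The histone deacetylase Hdac1 ran from 22.5 to 25.7 CPM (median 23.9) in WT and from 33.4 to 36.4 CPM (median 35.6) in Q175 mice (0.55 ± 0.0369, adjusted p = 7.53e-17), and the sirtuin Sirt7 changed by -0.50 ± 0.0502, while the family had 4 of 18 higher and 3 lower (7 and 1 without the 5 libraries high in cortical genes). Of 27 histone demethylases 5 rose and 4 fell (18 and 3 on log2(FPKM + 0.1) values). Of 24 SWI/SNF remodeller subunits 6 rose and 6 fell (11 and 4 on log2(FPKM + 0.1) values). The demethylases Kdm4b and Kdm3a changed by -0.72 ± 0.0564 and -0.58 ± 0.0577, and the SWI/SNF subunits Smarcd3 and Dpf1 by -0.67 ± 0.0447 and -0.52 ± 0.0516 (adjusted p of at most 1.92e-11 over these 4 genes and Sirt7). Of 368 Zfp genes, many of them KRAB repressors, 93 rose and 49 fell (25.3% and 13.3%, where 21.9% and 23.2% of all genes did). Without the 5 libraries high in cortical genes 65 rose and 48 fell, and with a term for lane 53 rose and 43 fell. On log2(FPKM + 0.1) values 185 rose and 15 fell. Of 21 genes of mismatch repair and related modifiers of CAG repeat length 10 rose and 1 fell (median 0.14, 47.6% higher against 21.9% of all genes), with the ribonucleotide reductase subunit Rrm2b at 0.36 ± 0.0468 and the sliding clamp Pcna at 0.20 ± 0.0334. Of 32 imprinted genes 15 rose and 3 fell (median 0.14). Within the imprinted region of chromosome 12 the maternal noncoding RNA Rian rose by 0.38 ± 0.0334 whereas the paternal gene Rtl1 ran from 25.1 to 27.8 CPM (median 25.8) in WT and from 10.7 to 14.04 CPM (median 12.1) in Q175 mice (-1.13 ± 0.0563). Adjusted p was at most 3.58e-06 for Rrm2b, Pcna, Rian and Rtl1. Rtl1 has an antisense transcript, and their reads cannot be separated because the use of strand is not given in the sources used here.

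On counts, cell cycle genes were lower more often than higher and tubulins higher more often than lower. The nuclear pore, the cilium and the other families here had calls in both directions. Of 37 cyclin, cyclin-dependent kinase and inhibitor genes 13 fell and 5 rose on counts (35.1% and 13.5%, where 23.2% and 21.9% of all genes did), and 12 rose and 8 fell on log2(FPKM + 0.1) values. Cyclin D2 (Ccnd2) had 83.5 ± 12.6 CPM in WT and 50.98 ± 3.67 CPM in Q175 mice (-0.72 ± 0.0900) and Ccng2 changed by -0.48 ± 0.0502. Of 21 nucleoporins 5 rose and 3 fell (38.1% called, against 45.1% of all genes), with the inner ring proteins Nup93 and Nup35 at 0.43 ± 0.0439 and -0.60 ± 0.0544. Of 47 ubiquitin-specific proteases 13 rose and 9 fell (46.8% called), with Usp28 at -0.67 ± 0.0520 and the paternally expressed Usp29 at 0.58 ± 0.0804. Of 22 genes of intraflagellar transport and the Bardet-Biedl complex 7 rose and 6 fell (59.1% called), with Bbs2 at -0.44 ± 0.0400. Tubulin genes had 5 of 15 higher and 1 lower (33.3% and 6.67%), with Tubb2a at 0.43 ± 0.0631 and Tuba4a at -0.30 ± 0.0475. Among 19 huntingtin partners 6 rose and 7 fell (68.4% called), with the endophilin Sh3gl3 at -0.33 ± 0.0440 and the palmitoyltransferase Zdhhc13 at -0.29 ± 0.0547. Of 16 Sox genes 3 rose and 2 fell (31.2% called), and those of immature neurons were among the higher ones, with Sox11 at 0.75 ± 0.131 and Sox4 at 0.44 ± 0.109. Adjusted p was at most 0.000768 for these 13 genes.

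Genes of the X chromosome were higher more often than those of any autosome. Of 619 genes of chromosome X tested 37.00% were higher and 14.7% lower, against 21.5% and 23.6% of 16416 autosomal genes, among which single autosomes ranged from 16.1% to 26.5% higher. The median log2 change of X genes was 0.08. X genes made up 3.05 to 3.36% of the counts in WT libraries (median 3.21) and 3.36 to 3.63% in Q175 libraries (median 3.54), so that the groups met at their edges only. Within the sexes they did not overlap, the shares being 3.18 to 3.36% in 5 WT and 3.53 to 3.63% in 5 Q175 females, and 3.05 to 3.21% in 4 WT and 3.36 to 3.44% in 2 Q175 males. In females alone 34.1% of X genes were higher and 10.99% lower (autosomes 17.4% and 20.3%), and in males alone 17.3% and 10.8% (autosomes 11.9% and 14.5%). With a term for lane the shares on X were 30.1% and 13.9%, on log2(FPKM + 0.1) values 53.6% and 8.24%, without the 5 libraries high in cortical genes 30.6% and 15.5% (autosomes 19.9% and 20.3%), and in the cortex 20.5% and 9.55% (autosomes 13.9% and 16.7%). The X genes of smallest p at a mean of at least 3 on the log2 CPM scale, a rule chosen after the values were seen, were led by Gprasp2, a sorting protein of G protein-coupled receptors (146 ± 8.27 CPM in WT and 239.5 ± 13.6 CPM in Q175 mice, 0.72 ± 0.0451), Htr2c, and Trmt2b, a tRNA methyltransferase (0.70 ± 0.0464), followed by Pcdh19, Armcx2 (0.34 ± 0.0262) and Syp (adjusted p of at most 1.14e-14 for the 3 genes not yet described). The X chromosome also held strong falls, with Dgat2l6 at -2.93 ± 0.176 and Phex, a membrane peptidase, at -2.70 ± 0.169, and the smaller one of Gripap1, a partner of a glutamate receptor scaffold, at -0.44 ± 0.0310 (adjusted p of at most 5.56e-16). These 3 were chosen after their values were seen.

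**Figure D5:**
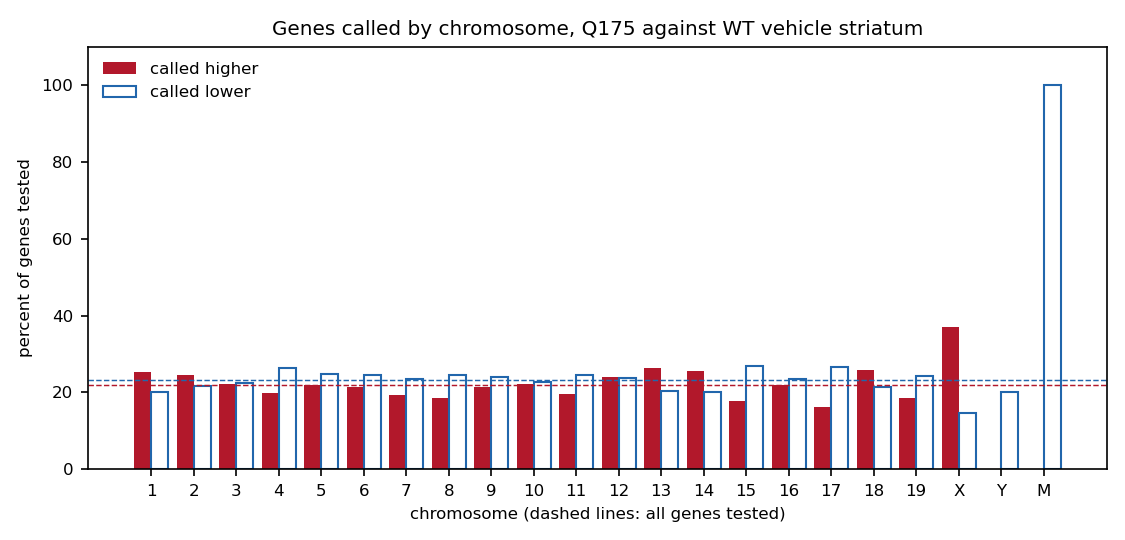
Share of the genes tested on each chromosome that were called higher (filled) and lower (open) in Q175 vehicle striatum, with dashed lines at the shares over all genes tested. Chromosome X has a larger share of higher genes (37.0%) than any autosome (at most 26.5%), and the mitochondrial genome (M, 15 genes) had only lower ones.

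Of 55 genes tested within 2 Mb of Htt on chromosome 5, 16 rose and 16 fell, where 21.9% of all genes were higher and 23.2% lower, and none changed by over 2-fold. Those of smallest p were all lower: Sorcs2, a sorting receptor (-0.95 ± 0.0769), the endosomal protein gene Zfyve28 (-0.79 ± 0.0494), the alpha-2C adrenergic receptor Adra2c (-0.68 ± 0.0549) and the phosphatase subunit Ppp2r2c (-0.34 ± 0.0334, adjusted p of at most 8.64e-12). Of the 1353 long noncoding genes 21.5% were lower and 16.1% higher. Among the named ones Emx2os rose by 1.40 ± 0.0896 and Abhd1, annotated here as a noncoding transcript, by 1.88 ± 0.0950, whereas Mhrt, which lies opposite a myosin heavy chain gene, changed by -1.33 ± 0.127 and Hectd2os by -1.43 ± 0.246 (adjusted p of at most 4.76e-06). Without strand, reads of antisense genes and their partners cannot be told apart.

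The genotype effect was not shown to differ between the sexes. The difference of the effects in females and in males was called for 0 of 17315 genes (0.0%) by edgeR, with 1976 genes at an unadjusted p under 0.05, and for 0 genes with DESeq2 size factors or with the 16 vehicle libraries alone (1959 and 1679 genes at an unadjusted p under 0.05). Each of these counts at an unadjusted p under 0.05 is above the 5% of genes tested that would pass if no effect differed. The 0 calls therefore do not show that the effects were equal. The males of the Q175 group were 2. The genes of smallest p were Klhdc8b (-0.59 ± 0.120, females minus males on the log2 scale), Phf21b (-0.65 ± 0.136), Maml3 (0.63 ± 0.134), Slc35b2 (-0.38 ± 0.0834) and the pocket protein Rbl2 (0.26 ± 0.0569), each at an adjusted p of 0.145. WT F1, F2, F3 and F5, but no WT male, are among the 5 libraries high in cortical genes. Without those 5 the genotype effect over both sexes moved from 0.09 to 0.31 for Klhdc8b and from -0.13 to 0.07 for Phf21b. It moved from 0.22 to 0.01 for Maml3, from 0.04 to 0.21 for Slc35b2 and from 0.13 to 0.04 for Rbl2. The sex difference without these libraries was not tested.

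In the cortex of the same mice the effect of the allele was smaller for many genes with a large change in striatum, but not for every gene list. There 5356 of 17603 genes were called (30.4%), and the genotype effect differed between striatum and cortex for 3832 of 18014 genes (21.3%) in a fit of both tissues with the mouse as a block, from which the differences between tissues are taken. Of the 183 genes higher by over 2-fold in striatum 153 were tested in cortex and 79 were called higher there (median 0.47 against 1.36 in striatum). Of the 355 lower ones 306 were tested and 210 called lower (median -0.59 against -1.33). The members were chosen for their striatal change, so the smaller cortical medians and the counts of called differences are a description. The difference itself was called for 105 of the higher and 212 of the lower genes. Some lists had a lower median in cortex than in striatum. There 27 of 44 voltage-gated potassium channel subunits were lower (median -0.21, against -0.15 in striatum), and 20 of 38 synaptic vesicle genes (-0.12 against -0.01). Inward rectifier and tandem-pore channels had -0.21 against -0.12. Other lists changed less in cortex, such as retinoic acid genes (-0.14 against -0.32) and calcium channel subunits (-0.10 against -0.16). The differences of list medians were not tested. Outside the medium spiny neuron list, the genes with the smallest p for the difference between the tissues were Rgs14, a regulator of G protein signalling (-1.45 ± 0.0645 in striatum, -0.30 ± 0.0416 in cortex, difference -1.14 ± 0.0599, adjusted p = 1.81e-19), the nuclear kinase Vrk1 (-0.97 ± 0.0501, 0.01 ± 0.0401, difference -0.98 ± 0.0563), Cntnap3 (-1.69 ± 0.0791, -0.20 ± 0.0576, difference -1.51 ± 0.0869), Ankrd35 (-1.58 ± 0.0760, -0.14 ± 0.0459, difference -1.43 ± 0.0826) and the homeobox gene Lmx1b (6.41 ± 0.301, 1.09 ± 0.229, difference 5.35 ± 0.311, adjusted p of at most 3.49e-18 over these 4 genes). Vrk1 ran from 36.3 to 47.1 CPM (median 42.3) in WT and from 19.2 to 22.8 CPM (median 21.7) in Q175 mice in striatum. Nrn1 moved in opposite directions, with 1.83 ± 0.241 in striatum and -0.54 ± 0.0471 in cortex (difference 2.55 ± 0.257, adjusted p = 7.88e-11). The phosphatase gene Ptprv, by contrast, changed by -2.08 ± 0.114 in striatum and -2.0 ± 0.191 in cortex, and its difference was not called (adjusted p = 0.849).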

How the data were processed

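RNA was measured by sequencing in 90 libraries from 45 mice, 1 of striatum and 1 of cortex for each mouse. The labels describe total RNA extracted with miRNeasy columns and standard Illumina libraries, and the submitters' processing notes name CASAVA 1.8.2. The sources used here do not give the aligner, quantifier, annotation, genome build or strand setting. The authors deposited expected counts (estimated counts that need not be whole, of which 81.5% were whole within 1e-06) and FPKM (fragments scaled to gene length and depth) for 38561 genes by Ensembl identifier. GENCODE M21 (GRCm38) gave names and positions to 36723 of them, holding 99.7% of the counts. An estimated count may spread reads shared by paralogs or overlapping genes, so single members of such families are uncertain.

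Counts were rounded to whole numbers and tested with edgeR 4.0.16 (R 4.3.3) by the quasi-likelihood F test, with TMM factors, the filter on low counts of edgeR, and terms for arm and sex. All 45 striatum libraries entered 1 fit and so shared 1 estimate of the spread. Calls rest on an adjusted p under 0.05 over all genes tested, and CPM are on TMM-scaled library sizes. Alternatives used DESeq2 1.42.0, limma 3.58.1 on log2(FPKM + 0.1) and log2(FPKM + 1), other scalings, terms and filters, and each library left out. A fold change on a log2(FPKM + pseudocount) scale understates changes of weak genes. Since 1 library came from each mouse, replicates are mice, and no pair of libraries agreed within sampling noise. Intervals and floors cover counting error only. The steps were tested on simulated counts.

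The gene lists were chosen with earlier results of these data known. Genes were named by rule: Htt; the 12 higher and 12 lower called genes of largest change at a mean of at least 3 log2 CPM outside the medium spiny neuron list; up to 4 members of smallest p in each list; 4 higher and 4 lower long noncoding genes; 8 abundant genes with a change of at least 0.3, all of them mitochondrial; 5 genes for the sex difference and, outside that list, 5 for the tissue difference; and 4 genes within 2 Mb of Htt. Genes named outside it are marked as chosen after their values were seen, or were chosen to complete a group. Some genes and 1 list that the rule takes in are not reported here.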

Additional observations from a re-analysis of the deposited data

Results flagged for a closer look

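In 424 groups of 7 or 9 values (the genes named and the marker sums, each within a genotype) the highest or lowest mouse was compared with the nearest of the others, and 34 values stood far apart, where chance gives about 1 in 20 groups. The gaps came mostly from a few libraries. WT F2, the library with the highest sum of cortical excitatory neuron genes (215 FPKM), was far from the other WT mice for Nrn1 at 27.2 CPM and for Ccng2 at 52.2, Clspn at 18.7, Col20a1 at 6.46, Kars at 72.1, Kcnab1 at 309.5, Kcnk2 at 99.6 and Olig1 at 131 CPM. Q175 F4, with 1772 FPKM of blood genes, stood apart for Barx1 at 0.857, Epop at 9.49, Mobp at 1653, Npy at 44.0, Pax2 at 1.27 and Robo3 at 17.97 CPM. Q175 M1 did so for Idh3a at 189 and Myl6b at 14.8 CPM and for the sum of thalamus and hypothalamus genes (36.4 FPKM), and Q175 M2 for Adra2c at 32.9 and Rgs14 at 32.8 CPM. Q175 F1 stood apart for Cbx8 at 17.6 and Usp28 at 46.7 CPM and for the sum of oligodendrocyte precursor genes (90.5 FPKM), and Q175 F2 for Sh3gl3 at 34.2 and Smoc1 at 23.6 CPM. Among the other WT mice, F1 stood apart for Fam196b at 3.29, Hoxc8 at 0.0276 and Trpc4 at 4.81 CPM, F3 for Acadvl at 40.6, F5 for Baiap3 at 31.5 and Smoc1 at 10.4, M1 for Trib3 at 4.06 and M2 for Hoxc6 at 0.0249 CPM. The values of Hoxc6 and Hoxc8 come from 1 count each.

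The genotype effect differed between striatum and cortex for 3832 genes. On the log2 scale the striatal minus the cortical effect was 5.35 for Lmx1b, 2.55 for Nrn1, -1.14 for Rgs14, -0.98 for Vrk1, -1.51 for Cntnap3 and -1.43 for Ankrd35.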

How the results depend on the processing

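The number of genes called, 7817 in all, was 7853 with DESeq2 size factors, 8065 with upper-quartile factors, 7883 with DESeq2, 7576 without a term for sex, 7374 with the 16 vehicle libraries alone and 8484 with offsets for GC content and length. It ran from 7342 (without Q175 F2) to 7876 (without WT M1) when single libraries were left out. On log2(FPKM + 0.1) values 7223 genes were higher, 2372 lower and 311 called over 2-fold, and on log2(FPKM + 1) values 7124, 2386 and 104. Without a filter on low counts 884 genes were called over 2-fold, against 538. The cause of these shifts was not tested. With the sex and replicate number of the titles as a replicate block 6160 genes were called (2993 higher, 3167 lower). Deviations of mice with the same number correlated between -0.17 and 0.14 and none was closest to its own number, so the numbers do not pair the mice. Without the 5 libraries high in cortical genes, an alternative chosen after seeing the data that leaves 5 WT and 6 Q175 mice, the change of Phf21b was 0.07 against -0.13, not called in either, that of Cdkn2a was 2.74 against 2.05, and 604 genes were called over 2-fold. The mice left were WT F4 and 4 WT males against Q175 F1, F2, F3 and F5 and 2 Q175 males. The term for sex was kept, and shifts in this alternative may come from the mix of sexes as well as from cortical tissue, which was not tested. The tissue difference was called for 3794 genes with DESeq2 size factors and 3611 of 17455 with the 32 vehicle libraries alone. Among named genes Maml3 lost the call of its genotype effect in several settings, Kars on both FPKM scales, Rbl2 without the 5 libraries, and Sst without them and with the block. Depth limits statements on genes with few counts.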

Other observations

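On counts, markers of the rarer neurons of the striatum were lower. All 4 cholinergic interneuron genes tested fell, and 2 did without the 5 libraries high in cortical genes and 2 on log2(FPKM + 0.1) values. Among them were Chat, which makes acetylcholine, at 36.8 ± 2.71 CPM in WT and 23.7 ± 3.17 CPM in Q175 mice (-0.63 ± 0.0668 on the log2 scale) and the choline transporter Slc5a7 at -0.58 ± 0.0684 (edgeR adjusted p of at most 1.65e-09), and the values of both genes did not overlap between the genotypes. The summed FPKM of the 4 genes ran from 26.3 to 30.5 in WT and from 18.3 to 23.2 in Q175 libraries. Of 8 GABA interneuron genes 6 fell and 0 rose, with 4 lower without the 5 libraries and 4 on log2(FPKM + 0.1) values. Pthlh, a marker of one interneuron class, changed by -0.63 ± 0.0755, the transcription factor Lhx6 by -0.25 ± 0.0514, and the peptides Npy and Sst by -0.39 ± 0.0678 and -0.27 ± 0.0625 (edgeR adjusted p of at most 0.000398), of which Sst was not called without the 5 libraries high in cortical genes.

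On counts, genes of mature oligodendrocytes were lower more often than higher. Of 13 oligodendrocyte genes 6 fell and 1 rose on counts (5 and 5 on log2(FPKM + 0.1) values), with the myelin genes Mobp at 2106 ± 266 CPM in WT and 1369 ± 137 CPM in Q175 mice (-0.63 ± 0.0946) and Mal at -0.61 ± 0.0865 (edgeR adjusted p of at most 3.24e-07). Of 8 precursor genes 2 rose and 1 fell, with Olig1 at 0.44 ± 0.0981 and Bmp4 at 0.66 ± 0.136 (edgeR adjusted p of at most 0.000237). Astrocyte genes that clear glutamate were among the lower ones, with the transporter Slc1a2 at -0.52 ± 0.0525 and glutamine synthetase, Glul, at -0.56 ± 0.0638 (edgeR adjusted p of at most 7.04e-10). Of 14 endothelial and pericyte genes 4 fell and 0 rose (6 fell without the 5 libraries high in cortical genes and 1 on log2(FPKM + 0.1) values), and none of 12 choroid plexus or 7 ependymal genes was called. None of 5 blood genes was called either (median 0.46), whereas without the 5 libraries high in cortical genes, which include Q175 F4 with its high blood sum, all 5 were lower (median -0.64). Fewer cells of a type and less RNA for each cell cannot be told apart here.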
